A study of Mus musculus with 6 samples.

Results

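The Iroquois homeobox genes of the mouse, Irx1, Irx2 and Irx4 on chromosome 13 and Irx3, Irx5 and Irx6 on chromosome 8, were examined for peaks of 2 histone marks in P19 cells, H3K9cr (the crotonylated form of histone H3 lysine 9) and H3K9ac (its acetylated form). These 6 genes were taken by name from the 21887 protein-coding genes of the gene table, and peaks were assigned to a gene when they overlapped its record extended by 20 kb on each side, called its window here, by at least 1 bp. P19 is a mouse embryonal carcinoma line, grown here without any treatment or genetic change named in the labels, in serum-containing proliferation medium that is not meant to differentiate it. Chromatin was immunoprecipitated without crosslinking in 2 biological replicates for each mark, with 1 antibody per mark, and 1 peak list per library was analysed. The 2 input libraries were not analysed here.

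Iroquois genes encode transcription factors of the TALE class of homeodomain proteins, which carry a conserved Iro box beside the homeodomain. Mammals have a pair of clusters that arose by duplication, so that Irx1 is most closely related to Irx3, Irx2 to Irx5 and Irx4 to Irx6. The factors pattern the neural tube, heart, limb and retina, and their genes are separated by long stretches of noncoding DNA that hold enhancers. H3K9ac and H3K9cr are both histone acylations that are typically found at active promoters and enhancers. The labels say nothing of expression, which was not measured here.

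The 4 lists held 26096 to 28360 peaks, and the fewest were in H3K9ac replicate 1. Median peak length was 1185 to 1246 bp, and read depth is not given in the sources used here. All 5 genes fixed as markers of undifferentiated cells (Pou5f1, Sox2, Lin28a, Nanog and Utf1) had peaks of both marks in every list, as did Tubb3, Map2 and Myod1 among 6 markers of other cells. Ptprc, Hbb-bt and Alb had none. The replicates are separate samples by the series design text, and p-values measure only the spread between these libraries.

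Every Iroquois gene carried both marks. All 6 windows had a peak in all 4 lists, compared with 74.3% of all protein-coding genes and 55.6% of the 5379 protein-coding genes that had their window to themselves. No Iroquois window held another protein-coding gene, although long noncoding RNA genes lay in those of Irx2, Irx3 and Irx5. In total the windows held 18 and 21 peaks in the H3K9cr lists and 17 and 19 in the H3K9ac lists. No peak lay more than 5266 bp from its gene record, so the outer part of each 20 kb flank was empty in every list. After merging the 4 lists, the windows held 17 regions, of which 14 (82.4%) were present in all 4 lists, against 73.8% of the 31127 merged regions of the whole genome.

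**Figure D1:**
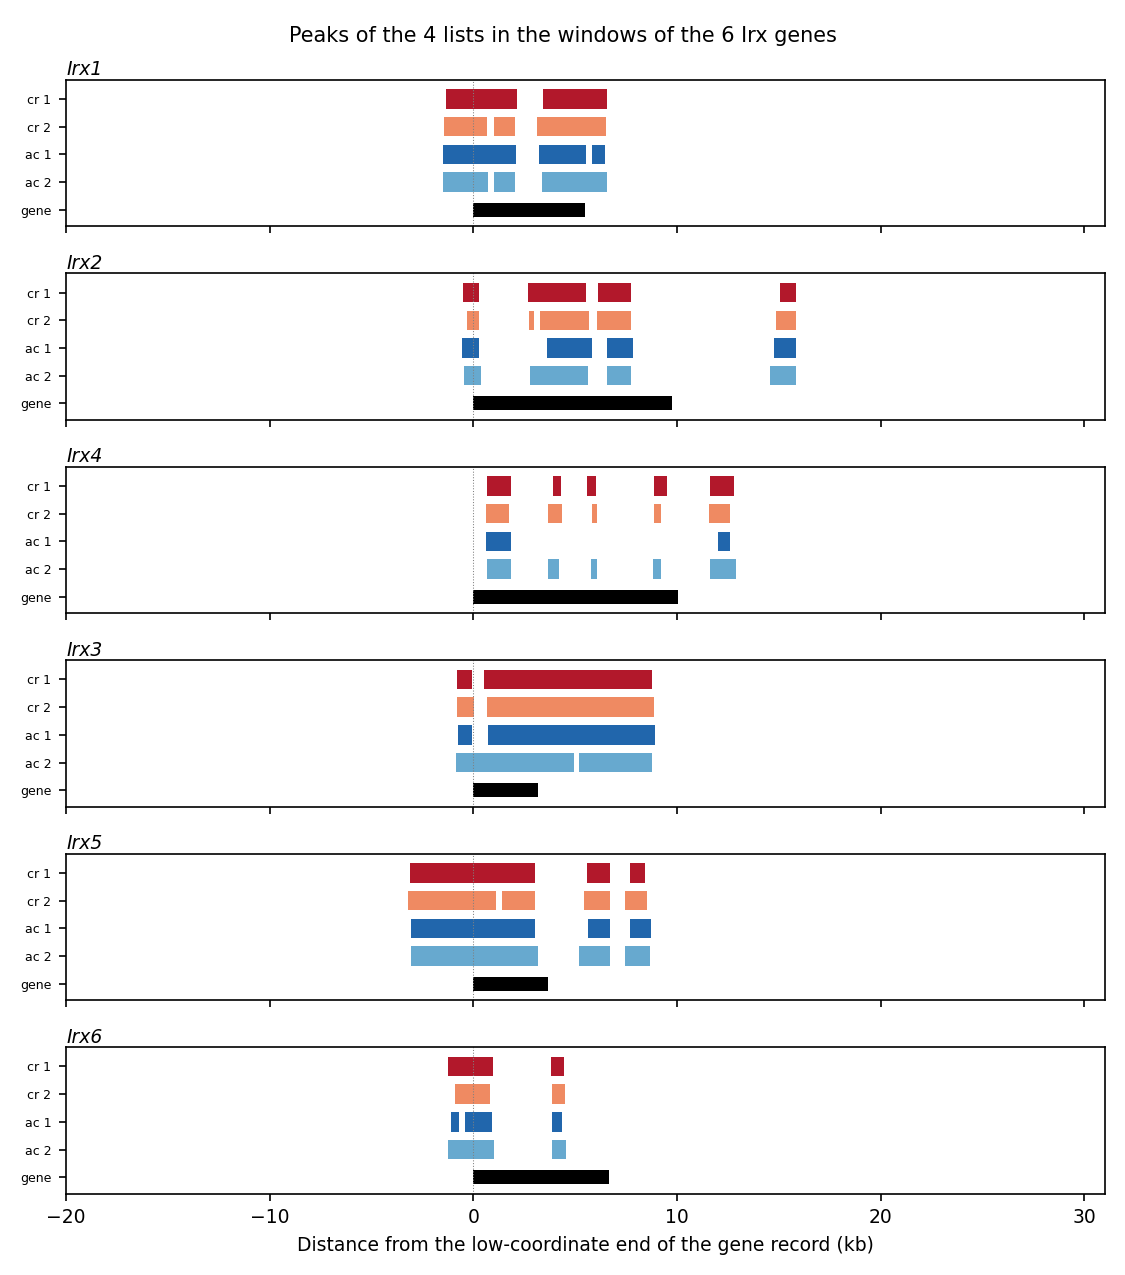
Peaks of the 4 lists (cr, H3K9cr; ac, H3K9ac; the number is the replicate) in the 6 windows, with the distance from the low-coordinate end of the gene record in kb on the x axis and the gene record as a black bar. Irx3 and Irx5 lie under long blocks, and Irx4 and Irx6 under separate peaks that are shorter than these blocks.

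Both marks covered most of the gene records of Irx3 (77.9% to 100% by library) and Irx5 (74.8% to 87.0%). Irx3, which sets boundaries between progenitor domains of the neural tube, lies on the minus strand (chromosome 8, 91798511 to 91801654, GRCm38). Its longest peak measured 8225 bp in H3K9cr replicate 1, 8212 bp in H3K9cr replicate 2 and 8195 bp in H3K9ac replicate 1. In H3K9ac replicate 2 the stretch was divided at another place, into peaks of 5775 and 3553 bp. In the other 3 libraries a separate peak of 701 to 850 bp lay at the low end of the record. By rank of length within its list, the longest Irx3 peak was number 25, 28, 16 and 143 in the same order of libraries. The summed covered length differed far less, with 8962, 9062, 8896 and 9328 bp. The block reached from below the gene to beyond the start of Irx3os, a long noncoding RNA gene on the opposite strand. The record of Irx3os begins 1681 bp from that of Irx3. The merged region ran from 91797675 to 91807400 and also overlapped the end of Gm39222 (91795574 to 91797743), another long noncoding RNA gene. By library, 27.5% to 33.7% of the covered length in the window lay in the Irx3 record. The peak lists cannot assign the block to one of these genes.

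Irx5, a factor of retinal bipolar cells and of the cardiac repolarization gradient, had the highest summits of the family (chromosome 8, 92357796 to 92361456). Its longest peak measured 6144, 4303, 6124 and 6241 bp in H3K9cr replicates 1 and 2 and H3K9ac replicates 1 and 2. The second H3K9cr library again showed a division, into 4303 and 1634 bp. This peak also covered the start of the noncoding gene Crnde, which is read on the minus strand away from Irx5 and begins 1675 bp from it. In all 4 libraries the summit lay inside Crnde, 341 to 499 bp beyond its first base and 2017 to 2175 bp from the record of Irx5. The peak lists cannot assign the block to one of these genes, and the strand of Irx5 is not given in the tables used here.

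Irx1 carried broad peaks and Irx2 a broad peak with several shorter ones, all with lower summits than the highest of Irx3 and Irx5. At Irx1 (chromosome 13, 71958232 to 71963723), a gene with roles in lung, limb and neural patterning, 2 merged regions of 3620 and 3413 bp covered both ends of the record and left 1010 bp between them free of peaks in every list. Covered length in the window was 6651 and 6519 bp in the H3K9cr libraries, and 6490 and 6378 bp in those of H3K9ac. Irx2 (chromosome 13, 72624430 to 72634196), which is often expressed together with Irx1, had 4 merged regions in all 4 lists. They lay at the low end of the record, around the start of the printed promoter, further inside the gene, and 4794 bp beyond its high end. The last of these had the highest fold enrichment of the Irx2 window in every library (15.5, 12.9, 13.9 and 20.6, as the authors' peak caller gave it). The regions at the low end and at the promoter also overlapped the long noncoding RNA gene Gm20554 (72623466 to 72628564, minus strand). The 250 bases before its first base (72628565 to 72628814) are nearly those of the printed Irx2 promoter. The peak lists cannot assign these regions to one of the genes. By library, 69.8% to 79.2% of the Irx1 record was covered, which overlapped the values of Irx3 and Irx5, and 38.7% to 48.6% of the Irx2 record was covered.

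Irx4 and Irx6 carried the least covered length. Irx4, a regulator of ventricular identity in the heart (chromosome 13, 73259589 to 73269622), had 1 short peak at its promoter of 1182, 1129, 1196 and 1184 bp and another of 1146, 1015, 587 and 1284 bp beyond its high end. The 3 regions of the family that were missing from a list were all weak peaks inside Irx4. They had fold enrichments of 3.73 to 6.52 in the other lists and were absent from H3K9ac replicate 1, the shortest list. Irx6, which acts in retinal bipolar cells (chromosome 8, 92674289 to 92680956), had a region of 2292 bp across its low end and one of 700 bp inside the record, both in all lists. Peaks covered 21.8% of the Irx4 record and 23.0% of the Irx6 record on average.

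The promoters for which a RefSeq sequence (build GRCm38.p6) was given were those of Irx2, Irx3 and Irx4, and Crnde is added for the Irx5 block. They are shown because the peaks described above lie on them: all 250 bases before the first transcribed base were under a peak in each of the 4 lists. The share of all promoters lying under peaks was not computed. CpG dinucleotides are in capitals.
Irx3 (chr8:91801655-91801904, minus strand): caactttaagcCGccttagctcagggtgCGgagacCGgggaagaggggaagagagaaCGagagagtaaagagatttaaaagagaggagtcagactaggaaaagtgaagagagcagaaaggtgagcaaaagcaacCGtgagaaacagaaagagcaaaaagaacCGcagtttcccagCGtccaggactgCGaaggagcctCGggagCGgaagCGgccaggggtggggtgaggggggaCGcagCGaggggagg
Crnde (chr8:92356121-92356370, minus strand): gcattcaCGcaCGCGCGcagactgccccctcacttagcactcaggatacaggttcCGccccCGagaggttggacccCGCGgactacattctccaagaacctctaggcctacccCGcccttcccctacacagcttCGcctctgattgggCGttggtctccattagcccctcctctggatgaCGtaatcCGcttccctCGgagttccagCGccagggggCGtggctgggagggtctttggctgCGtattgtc
Irx2 (chr13:72628570-72628819, plus strand): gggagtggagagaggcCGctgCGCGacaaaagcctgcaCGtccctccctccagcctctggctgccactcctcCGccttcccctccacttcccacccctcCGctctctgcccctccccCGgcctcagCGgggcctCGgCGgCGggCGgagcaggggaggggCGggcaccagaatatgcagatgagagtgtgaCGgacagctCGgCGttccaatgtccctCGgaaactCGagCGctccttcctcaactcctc
Irx4 (chr13:73260247-73260496, plus strand): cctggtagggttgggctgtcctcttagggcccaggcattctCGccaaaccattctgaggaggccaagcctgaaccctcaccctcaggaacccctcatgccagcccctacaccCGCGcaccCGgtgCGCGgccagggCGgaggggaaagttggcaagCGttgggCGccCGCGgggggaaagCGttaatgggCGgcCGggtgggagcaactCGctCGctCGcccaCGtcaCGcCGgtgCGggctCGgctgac

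These stretches held 13 CpGs at Irx3, 17 at Crnde, 19 at Irx2 and 22 at Irx4, against a median of 6 over 32851 promoters of the same length. At least as many CpGs were found in 31.5%, 23.5%, 19.7% and 14.8% of all promoters. The GC box GGGCGG, searched on both strands, occurred 2 times each at Irx2, Irx4 and Crnde and 0 times at Irx3, and 32.7% of all promoters held it. The CCAAT box (CCAAT, both strands) occurred 1 time each at Irx2 and Crnde (33.8% of all promoters), and the TATA box TATAAA, also searched on both strands, occurred in none of the 4 stretches (12.4% of all promoters). The Irx4 summits lay 145 to 177 bp after the first transcribed base in the 4 libraries. At Irx3 the summit of the peak over the promoter ranged from -1278 to 3701 bp relative to the first base (negative values lie before it). The value of 3701 bp came from H3K9ac replicate 2, where the summit at the low end of the region (91797953) belonged to the long peak. The other 3 lists had a summit at nearly the same place (91797954 to 91798006), in the separate short peak. The Irx2 and Irx4 gene records extend upstream of these promoters.

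The 6 genes differed from each other far more than the libraries did. By the share of the window covered by peaks, the order was Irx3 (21.0% ± 0.440), Irx5 (19.2% ± 0.970), Irx1 (14.3% ± 0.247), Irx2 (11.8% ± 0.722), Irx4 (6.38% ± 1.90) and Irx6 (5.54% ± 0.819; SD, n = 4 libraries for each). Each of the first 4 genes was above the next in 4 of 4 libraries, without overlap of their ranges. In bp, the ranges of Irx3 (8896 to 9328) and Irx5 (8008 to 8993) did overlap. Irx4 and Irx6 overlapped, and Irx4 was the higher in 3 of 4 libraries. The reversed library was H3K9ac replicate 1, in which 3.56% of the Irx4 window was covered compared with 6.93% to 7.55% in the others.

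Height gave another order. The pileup, the coverage at a peak's summit, was ranked within each list and expressed as a percentile of that list. The highest peak of Irx5 stood at percentile 71.0 ± 1.93, that of Irx3 at 57.2 ± 2.65 and that of Irx4 at 51.8 ± 1.25 (SD, n = 4 for each). Those of Irx1, Irx2 and Irx6 stood at 40.9 ± 2.94, 39.6 ± 3.42 and 38.3 ± 3.29 and overlapped each other. The ranges of Irx5, Irx3, Irx4 and Irx1 did not overlap. Irx4, with the shortest longest peak of the family (1198 bp ± 64.3), thus had a higher summit than Irx1, whose longest peak measured 3399 bp ± 180.2 (SD, n = 4 each).

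**Figure D2:**
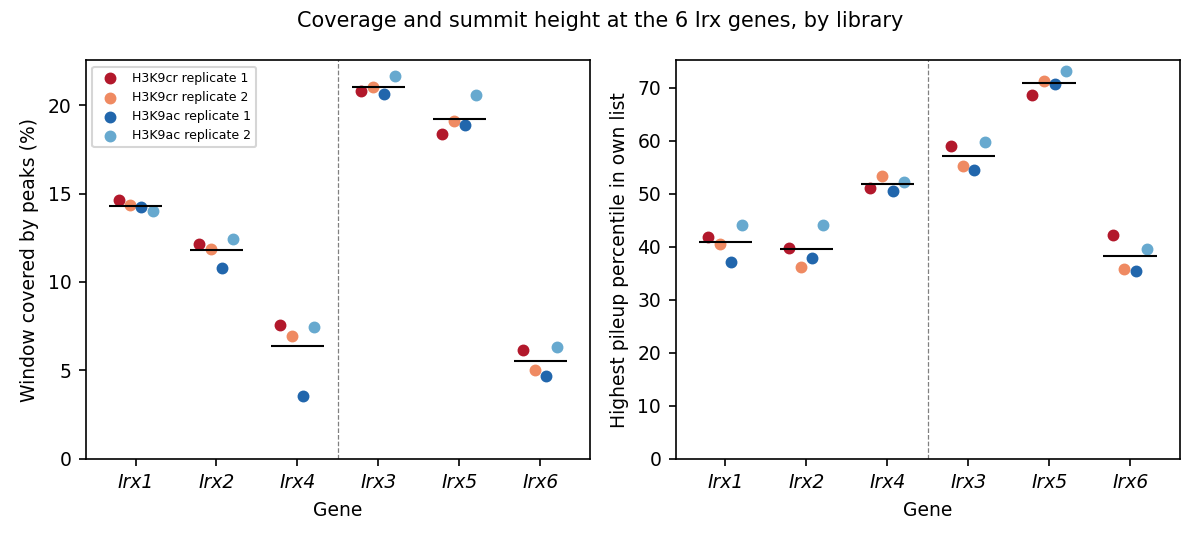
Share of the window covered by peaks (left, percent) and percentile of the highest pileup within its own list (right) for each gene, with 1 point per library and the mean as a line; the dashed line separates the clusters. Irx3 leads by coverage and Irx5 by height, while Irx6 has the lowest mean in both, with points that overlap those of other genes.

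Set against protein-coding genes with peaks in all 4 lists, the family had higher coverage and lower summits by its medians. Among the 16259 genes with a peak in the window in all 4 lists, median coverage was 4.96% and the median of the highest pileup percentile was 81.9. For the Iroquois genes the corresponding medians were 13.1% and 46.4. Counting also the genes without a peak, the coverage of Irx3 exceeded that of 97.2% of all 21887 genes and that of Irx6 exceeded 66.2%. The highest pileup of Irx5 exceeded that of 49.6% of genes and that of Irx6 exceeded 29.7%. Genes alone in their window and with a peak in all 4 lists had medians of 2.46% and 66.3. Counting also those without a peak, the highest pileup of Irx5 exceeded that of 76.7% of genes alone in their window. That of Irx6 exceeded 50.6% of them, but 2216 of the 5379 such genes had no peak in any list and were counted as lower. Against genes alone in their window with a peak in all 4 lists, the Iroquois median of 46.4 was also below theirs of 66.3. Among the Iroquois genes only Irx5 (71.0) lay above that median. By longest peak, Irx3 exceeded 99.8% of all protein-coding genes, Irx6 50.9% and Irx4 33.7%. A percent of the window falls with gene length, and the Iroquois records are short, from 3144 to 10034 bp. By covered length in bp, Irx3 exceeded 93.9% and Irx6 49.5% of all protein-coding genes.

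**Figure D3:**
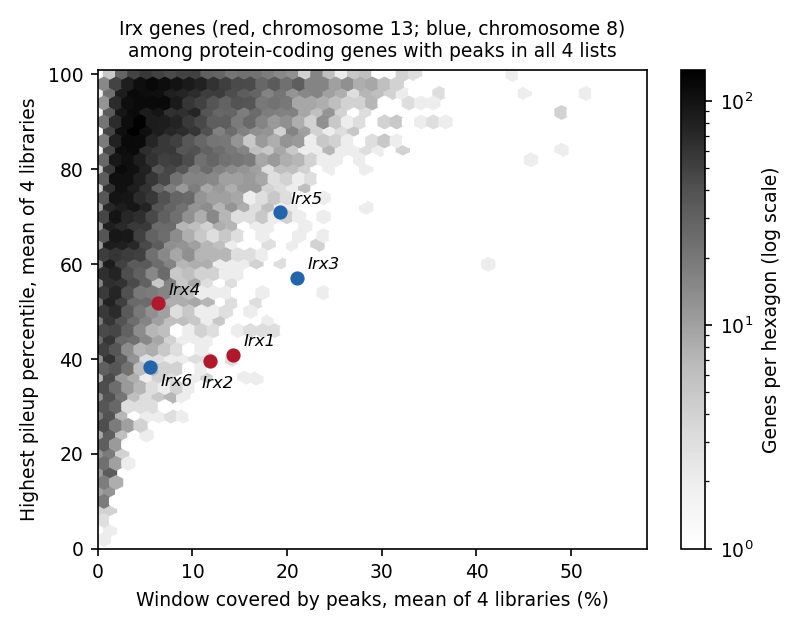
Window coverage (x axis, percent) against the highest pileup percentile (y axis), both as means of 4 libraries, for the 16259 protein-coding genes with peaks in all lists (grey hexagons, log colour scale) and the 6 Iroquois genes. The Iroquois genes lie between 5.54% and 21.0% coverage and between percentile 38.3 and 71.0, to the right of and below the densest part of the plot.

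All measured genes of the related TALE list and of the neural tube patterning list were also occupied in every list. All 12 TALE genes outside the family had a peak in all lists, with a median coverage of 5.78% and a median highest percentile of 71.8. Their coverage ranged from 2.53% at Pbx3 to 26.4% at Pbx2, both genes of Hox cofactors. Height ranged from percentile 55.8 at Meis2, another Hox cofactor gene, to 97.2 at Tgif1, which encodes a repressor in TGF-beta signalling. All 14 neural tube genes had peaks in all lists, with medians of 9.56% and 50.5. The interquartile ranges of their values, 4.47% to 14.2% and 36.6 to 65.7, overlapped those of the Iroquois genes, 7.73% to 18.0% and 39.9 to 55.8. They ranged from 0.869% and percentile 15.3 at Dbx2, a gene of intermediate progenitor domains, to 24.2% at Pax6 and percentile 94.8 at Gli1, an effector and target of Hedgehog signalling. No test of these lists was made, and both had been chosen with earlier results of these data known.

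The 2 genes most like each Iroquois gene were those with the smallest mean absolute difference over 8 values, the coverage and highest pileup percentile in the 4 libraries, among 16258 genes. Irx3 was closest to Sox1 (difference 1.32) and Nkx3-2 (1.47), and Irx1 to Hoxb5 (1.67) and Tbx1 (1.72). Irx2 was closest to Hoxc10 (1.39) and Hoxc9 (1.44), whose mean highest percentile was 39.2 in both cases. Irx5 was closest to Ppm1j (1.27) and Chpf (1.29), Irx4 to Bhlha9 (0.994) and Upp1 (1.07), and Irx6 to Gm715 (1.17) and AI593442 (1.19). The 4 libraries come from the same line, so these differences describe 4 similar measurements.

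The clusters were then compared within each library. Windows of the Irx3-Irx5-Irx6 cluster were covered to a larger share than those of Irx1-Irx2-Irx4 in 4 of 4 libraries. The mean over the 3 windows was 11.4% against 15.1% in H3K9cr replicate 1, 11.0% against 15.0% in H3K9cr replicate 2, 9.54% against 14.7% in H3K9ac replicate 1 and 11.3% against 16.2% in H3K9ac replicate 2. The values of the clusters did not overlap. The windows of Irx1-Irx2-Irx4 total 145.3 kb and those of Irx3-Irx5-Irx6 133.5 kb, which lowers the share of the former. In bp, peaks covered 16479, 15882, 13644 and 16304 of the former and 19834, 19735, 19306 and 21275 of the latter, in the same order of libraries. The difference, Irx1-Irx2-Irx4 minus Irx3-Irx5-Irx6, was -4.42 percentage points ± 0.720 (SD, n = 4; exact two-sided sign-flip permutation p = 0.125, the smallest that 4 libraries allow). It was carried by Irx3 and Irx5, as Irx6 had the lowest mean coverage of all. By library it was -3.64 and -3.999 for H3K9cr and -5.17 and -4.87 for H3K9ac, so it was larger in both H3K9ac libraries than in both H3K9cr libraries. The exact two-sided permutation p for this separation of the marks was 0.333, the smallest that 2 libraries against 2 allow.

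More peaks lay in the Irx1-Irx2-Irx4 windows, with 11, 13, 9 and 12 peaks compared with 7, 8, 8 and 7 in the Irx3-Irx5-Irx6 windows. The longest peak of the first cluster measured 3169 to 3583 bp and that of the second 6241 to 8225 bp. The highest pileup stood at percentile 50.5 to 53.3 and at 68.6 to 73.3. These counts and extremes were chosen after the peaks had been seen and are given as a description. Median peak length was 1146, 1015, 1196 and 1196 bp in the first cluster and 1118, 1466.5, 1053 and 2276 bp in the second, a difference of -340.1 bp ± 556 that was negative in 2 of 4 libraries (SD, n = 4; exact sign-flip permutation p = 0.5). The median pileup percentile was 31.3, 32.6, 36.3 and 33.98 in the first cluster and 42.3, 36.0, 30.1 and 39.7 in the second. This difference, -3.47 ± 7.15, was negative in 3 of 4 libraries (SD, n = 4; exact sign-flip permutation p = 0.5), and it was -0.973 without H3K9cr replicate 1 and -6.67 without H3K9ac replicate 1. With only peaks of a -log10 q of at least 10 it was -6.89, negative in 4 of 4 libraries (exact sign-flip permutation p = 0.125, the smallest possible). The difference in median length was -93.5 bp without H3K9ac replicate 2.

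**Figure D4:**
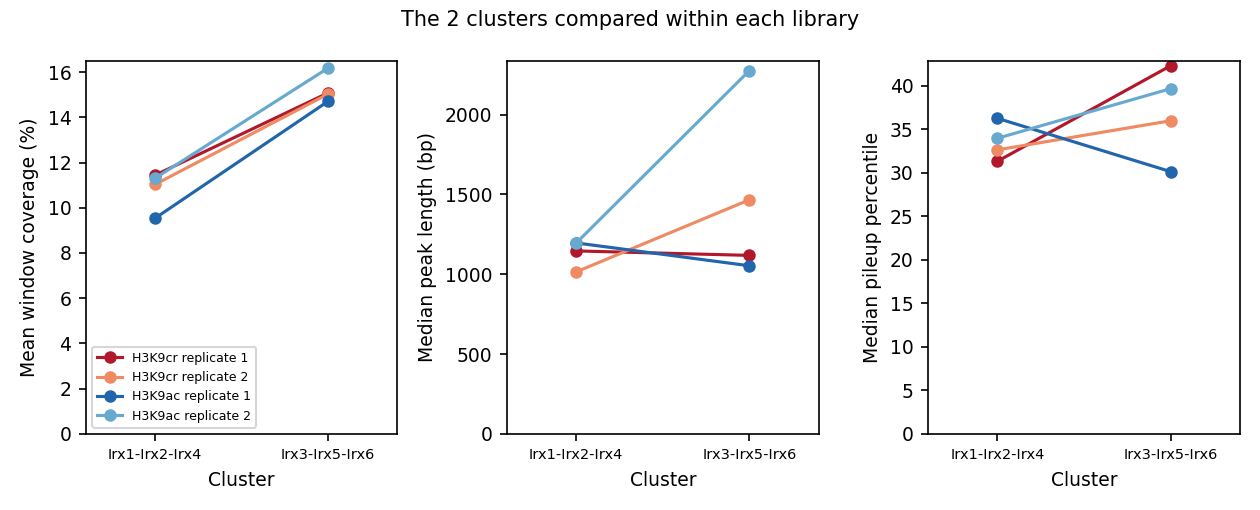
Mean window coverage (percent), median peak length (bp) and median pileup percentile of the 2 clusters, with 1 line per library. Coverage is higher in the Irx3-Irx5-Irx6 cluster in 4 of 4 libraries, while the lines of the other 2 measures cross.

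By related pairs, Irx3 was covered more than Irx1 by 6.69 percentage points ± 0.641 and Irx5 more than Irx2 by 7.41 ± 0.911, each in 4 of 4 libraries (SD, n = 4). Irx6 was not above Irx4, with a difference of -0.839 ± 1.34 and a higher value in 1 of 4 libraries. By height, Irx3 exceeded Irx1 by 16.3 percentile points ± 1.31 and Irx5 exceeded Irx2 by 31.4 ± 3.03. Irx6 was lower than Irx4 in all 4 libraries, with a difference of -13.5 ± 3.72. By longest peak, Irx3 exceeded Irx1 by 4203 bp ± 1069, Irx5 exceeded Irx2 by 3129.8 ± 860.4 and Irx6 exceeded Irx4 by 685 ± 436, each in 4 of 4 libraries. The third pair therefore ran against the other pairs in height and with them in the length of the longest peak.

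The DNA between the genes also differed. From the first to the last window, the Irx1-Irx2-Irx4 cluster spanned 1351 kb and the Irx3-Irx5-Irx6 cluster 922 kb, with neighbouring genes 312.8 to 660.7 kb apart. No other protein-coding gene lay in either span. Of the covered length of the first span, 92.1% to 97.2% lay in the windows of the 3 genes, compared with 74.8% to 83.7% of the second. Outside the windows the first span had 4 merged regions, of which 1 was in all lists, with fold enrichments of 6.11 to 7.33. The second had 10, of which 4 were in all lists.

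The strongest of these lay between Irx3 and Irx5 (chromosome 8, 92132679 to 92135090), 222.7 kb from Irx5, the nearest protein-coding gene. Its fold enrichment was 58.5 and 53.6 for H3K9cr and 35.3 and 43.5 for H3K9ac, and its pileup stood at percentile 72.8, 71.1, 62.5 and 62.1. The highest pileup in the Irx5 window itself stood at percentile 68.6, 71.3, 70.8 and 73.3 in the same libraries. The distal region was thus above Irx5 in 1 library, H3K9cr replicate 1, and below it in the other 3. Another region in all lists lay 98.7 kb above Irx5, between it and Irx6 (92460116 to 92461251), with fold enrichments of 15.9 to 18.6. Both were singled out after their values were seen, and the difference between marks at single regions was not tested. The protein-coding genes next to the clusters were Adamts16 and Ndufs6 on chromosome 13 and Fto and Mmp2 on chromosome 8. Ndufs6, a subunit gene of respiratory complex I, lay 50.3 kb above Irx4, and its window had a highest pileup at percentile 66.9 to 75.7. Adamts16, a metalloprotease gene 1116 kb below Irx1, reached percentile 12.9 to 31.3. Fto, 130.1 kb below Irx3, reached percentile 71.1 to 74.3, and Mmp2, 146.3 kb above Irx6, reached 56.9 to 64.4.

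**Figure D5:**
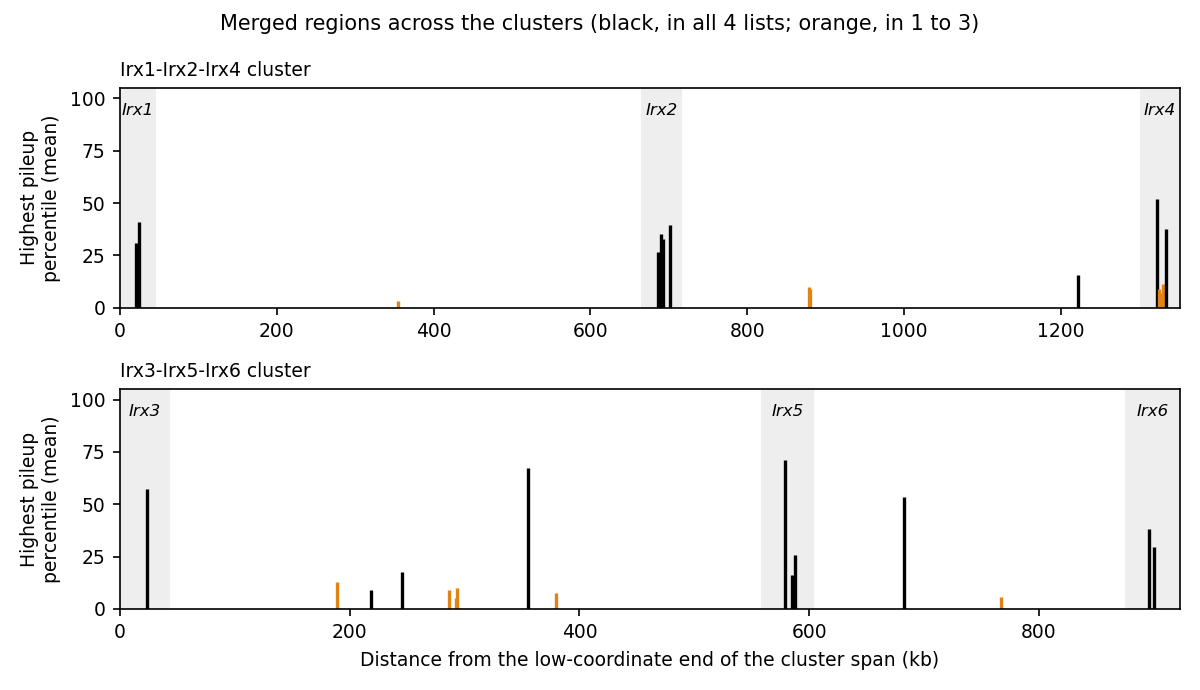
Merged regions across the 2 cluster spans, with the distance from the low-coordinate end of the span in kb on the x axis and the highest pileup percentile, averaged over the lists with a peak there, on the y axis. Grey bands are the gene windows, black lines are regions in all 4 lists and orange lines regions in 1 to 3; only the Irx3-Irx5-Irx6 span has regions above percentile 50 outside the bands.

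The marks were finally set against each other at the same genes. Over the 6 windows, mean coverage was 13.3% and 13.04% in the H3K9cr libraries and 12.1% and 13.7% in the H3K9ac libraries, so the groups overlapped. The means were 13.1% ± 0.161 and 12.9% ± 1.14 (SD, n = 2 each; exact two-sided permutation p = 1). The difference was 0.213 percentage points, and it was -0.596 without H3K9ac replicate 1 and 1.02 without H3K9ac replicate 2. Covered length was higher in both H3K9cr than in both H3K9ac libraries at 1 of 6 genes, Irx1, against 43.6% of the 16259 genes tested. The reverse held at 0 of 6, against 2.30%. The H3K9cr lists are the longer ones, with a median covered length per gene of 3722 and 3803 bp, compared with 3354 and 3647 bp in the H3K9ac lists.

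After centring on these medians, limma (Benjamini-Hochberg adjustment over 16259 genes) called 0 of the 6 genes. It called 0 genes in either direction (0% of genes), while 1264 (7.77%) had an unadjusted p under 0.05, Irx5 among them. At Irx5, the H3K9cr libraries covered 8008 and 8333 bp and the H3K9ac libraries 8230 and 8993 bp, so the marks overlapped before centring. After centring they did not overlap, with means of 4408 bp for H3K9cr and 5111 bp for H3K9ac. The centred difference of H3K9cr minus H3K9ac was -703 bp (SE 234, limma adjusted p = 0.544), and the adjusted p of the other members ranged up to 0.925. For the rank of the highest pileup, limma called 0 of the 6 Iroquois genes (adjusted p 0.784 to 0.995) and 5 genes in all, each higher for H3K9cr (0.0308% of genes) and 0 higher for H3K9ac (0%). No Iroquois gene had an unadjusted p under 0.05 for this rank. Leaving out single libraries changed the calls over all genes, to 469 and 463 for covered length without H3K9cr replicate 1 and 2, and for the rank to 104, 79, 43 and 510 without H3K9cr replicates 1 and 2 and H3K9ac replicates 1 and 2. None of these calls was an Iroquois gene.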

How the data were processed

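The authors deposited 1 peak list per precipitated library, not pooled. Bowtie2 2.4.1 and MACS2 2.2.7.1 with build GRCm38 are named in the submitters' processing notes, with no options given there. Each peak has a start, end and summit (counted from 1), a length, a pileup signal, a fold enrichment (a ratio), and a -log10 p and -log10 q-value, per the file headers. Pileup scaling is not stated, so pileup was compared only as a rank within its list. The smallest deposited -log10 q was 2.02 to 2.06. A site missing from a list may lie below that threshold. Samples were grouped by their titles. Gene records came from a RefSeq table of GRCm38.p6, which gives no exons. The members, lists and rules were chosen with earlier results of these data known. Named genes were the members, genes in or beside the clusters, the nearest 2 genes by likeness, and the extremes of the lists. Python 3.11.15, numpy 2.4.6, pandas 2.3.3, scipy 1.17.1 and limma 3.58.1 in R 4.3.3 were used. The limma fits took genes with a peak in all 4 lists at an adjusted p of 0.05. Only the covered length fit was tried on simulated data, with changes larger than the reported differences at the Iroquois genes. The lack of a call at these genes therefore does not show that the marks are equal there. Alternatives were flanks of 10 and 50 kb, a -log10 q of at least 10, equal numbers of peaks, 50% overlap, left-out libraries, a replicate block, no centring and genes with a peak in 1 list.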

Additional observations from a re-analysis of the deposited data

How the results depend on the processing

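All 6 windows kept a peak in every list used under each alternative run. A wider flank or a left-out library could not remove one. The cluster differences in coverage, median length and median pileup percentile stayed negative as means over libraries under each. With the other flanks and with 50% overlap the same Iroquois peaks were taken, so the last 2 measures could not change. The reported difference in median length was negative in only 2 of 4 libraries. The coverage difference was -9.47 percentage points with flanks of 10 kb and -1.63 with flanks of 50 kb, since the windows grow while the peaks lie within 5266 bp of the genes. With a -log10 q of at least 10 the pileup percentile difference was -6.89. Leaving out 1 library gave -4.68 to -4.17 for coverage, -501.2 to -93.5 bp for median length, -6.67 to -0.973 for the pileup percentile and -0.596 to 1.02 for the mark difference in coverage, which changed sign without H3K9ac replicate 1.

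Calls over all genes for covered length were 0 in the reported fit and 0 to 469 with 1 library left out. For the pileup rank they were 5 in the reported fit, 17 with flanks of 50 kb, 3 with a -log10 q of at least 10, 48 with genes having a peak in at least 1 list, and 43 to 510 with 1 library left out. With the replicate block they were 98 for the pileup rank and 0 for covered length. Deviations of same-numbered libraries correlated at 0.127 for covered length and 0.0644 for the rank across genes. With 2 pairs this does not show that the libraries are paired. In fits without a library, the lone library of a mark is assumed to vary like the other mark, and the cause of the changed counts was not tested.

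For the 6 genes, the refits gave 138 values, 1 for each gene in each refit. Of these, 0 were calls, and 24 had the opposite sign to the uncalled difference of the reported fit. For covered length these were -423.8 bp at Irx4 and 484.8 bp at Irx5 with a -log10 q of at least 10, and 151 bp at Irx1, 188.5 bp at Irx2 and 35 bp at Irx6 without centring, which restores the 262 bp by which the library medians of the marks differ. For the pileup rank score they were -0.0095 at Irx3 with a -log10 q of at least 10, and -0.0805 at Irx1, -0.0500 at Irx4, -0.0648 at Irx3 and -0.0621 at Irx6 with equal numbers of peaks. With 1 library left out, covered length ranged from -313.5 to 91.5 bp at Irx1, -339 to 192 bp at Irx2, -222.5 to 1432.5 bp at Irx4 and -529.5 to 75.5 bp at Irx6. The rank score ranged from -0.0762 to 0.106 at Irx1, -0.158 to 0.0015 at Irx2, -0.0654 to 0.0686 at Irx3, -0.0052 to 0.0493 at Irx4 and -0.0481 to 0.123 at Irx6. Read depth is unknown, so a site under the threshold cannot be told from an absent one.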
